A study of Mus musculus with 4 samples.

Results

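The retinoic acid pathway genes examined here were 9 genes: the retinoic acid receptors Rara, Rarb and Rarg, the retinoid X receptors Rxra, Rxrb and Rxrg, the synthesis enzyme Aldh1a2 and the breakdown enzymes Cyp26a1 and Cyp26b1. Each symbol was found once, as a protein-coding gene, among 22350 coding genes of the mouse GENCODE annotation of the NCBIM37 (mm9) genome. A Pax7 peak was assigned to a gene when its summit, the base with the strongest signal, lay inside the gene or at most 100 kb beyond either end. By this rule 29 of the 20579 deposited Pax7 peaks lay in the windows of the 9 genes, which covered 2.50 Mb. The assignment used gene names and positions, and no property of the peaks other than the summit position. The genes themselves were chosen with earlier results of these data known.

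Pax7 occupancy had been mapped by ChIP-seq in iPax7 muscle progenitors, which are made from A2lox-cre mouse embryonic stem cells with 1 copy of a doxycycline (Dox)-inducible Pax7 cDNA placed next to Hprt. Dox was given at 1 µg/ml from day 3, PDGFRα+FLK1- cells were sorted on day 5, and the cells were harvested on day 9 after 6 days of Dox. Both groups, 2 Pax7 ChIP libraries and 2 input libraries, came from such Dox-treated cells. The binding described is therefore that of Pax7 while the transgene was induced. Pax7 from the transgene and from the endogenous gene is not separated in the peak list. There is no sample without Dox or after its withdrawal. The libraries of each kind were merged before the peaks were called, and no value below has a replicate error. All comparisons are therefore descriptions, and intervals cover counting error only. The peak list holds no read totals, so the depth behind single peaks was not used here.

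Retinoic acid is made from vitamin A by retinaldehyde dehydrogenases and acts as the ligand of the RARs, which bind DNA as heterodimers with RXRs at direct repeats of a short half-site. In the embryo Aldh1a2 provides most of the retinoic acid of the trunk, including the somites from which skeletal muscle arises, and the Cyp26 enzymes clear it. Rarb and Cyp26a1 are textbook targets that the receptors themselves switch on through a direct repeat with a spacer of 5 bases (DR5) in their promoters. Pax7 is a paired-box and homeobox transcription factor of muscle progenitors and satellite cells.

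Of the 9 genes, 7 had at least 1 Pax7 peak in the window, and Aldh1a2 and Cyp26b1 had none. Among all coding genes, 75.2% had at least 1 peak by the same rule, so this count lies close to the background. The RXR genes held 15 peaks, the RAR genes 11 and the enzyme genes 3, which corresponds to 20.4, 10.4 and 4.25 peaks per Mb. These rates depended on single genes. Rara and Rarg had 20.2 and 18.0 per Mb, whereas the 588 kb Rarb window had 3.40. Of the 15 RXR peaks, 7 lay in the Rxrb window, into which 14 other coding genes reached. The single strongest peak lay beyond the 3′ end of Rxra and was the third-ranked of all 20579 peaks by fold enrichment. Only Rxrg, Cyp26a1 and Rarb had the nearest coding start to any of these peaks, and 20 of the 29 peaks lay nearer to the start of another coding gene.

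**Figure D1:**
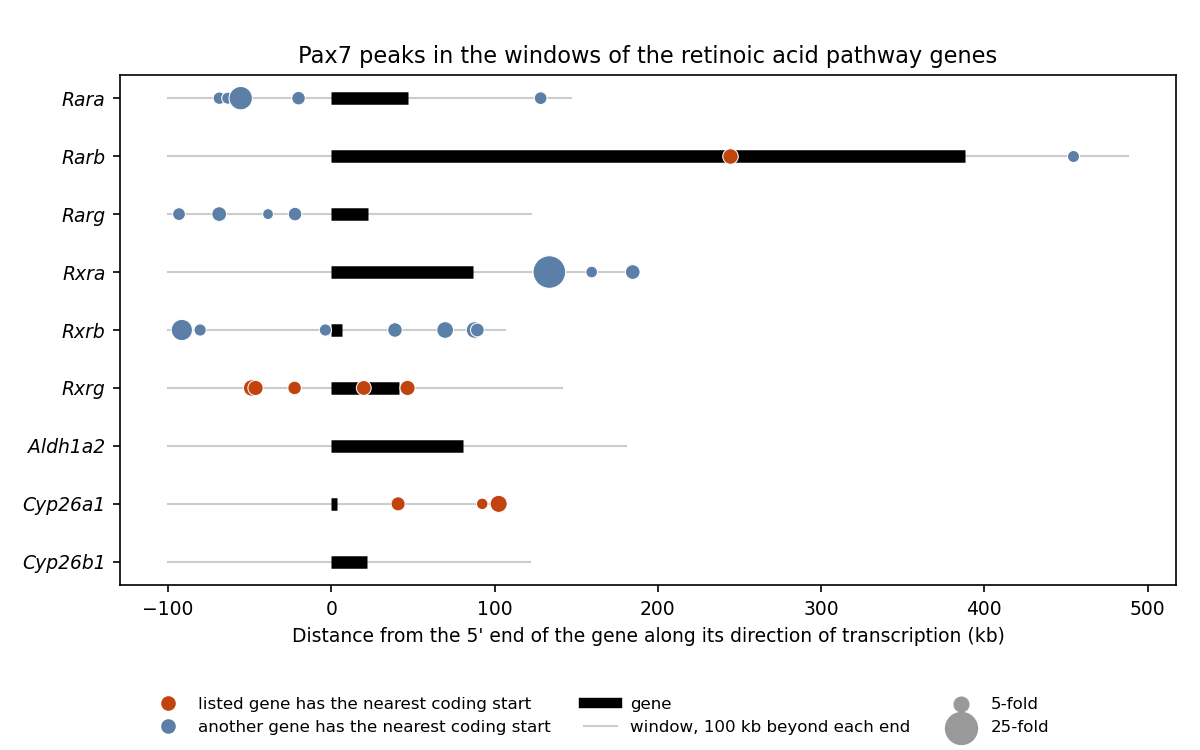
Position of each Pax7 summit in kb from the 5′ end of the gene along its direction of transcription, with 1 row per gene, the gene as a black bar and its window as a grey line. Circle area is proportional to fold enrichment and colour shows whether the listed gene has the nearest coding start. The 5 summits at Rxrg and the 3 downstream of Cyp26a1 are nearest to those genes, whereas the 27.1-fold summit at Rxra lies 133.6 kb from its 5′ end.

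The sequences at the strongest peaks are shown because they are the stretches of DNA at which these values were measured. Each runs 5′ to 3′ on the plus strand of NCBIM37 and is centred on the summit. Capitals mark a match to one of the Pax motifs or to a nuclear receptor half-site, searched on both strands. The Pax motifs were the paired-box core GTCACG, the composite homeobox and paired-box form ATTAGTCAC with its variant ATTAGTCAT, and the homeodomain dimer, in which TAAT is followed after 2 or 3 bases by ATTA. The half-sites were AGGTCA with the variants AGTTCA and GGGTCA and also GGTTCA. For Rarg and Rxrb the strongest summit lay mostly on exon bases, and the strongest peak without exon bases is given instead.
Rara peak, intron of Wipf2, chr11:98733617-98733717: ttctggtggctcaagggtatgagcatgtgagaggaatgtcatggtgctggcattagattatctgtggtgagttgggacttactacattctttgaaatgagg
Rarb peak, intron of Rarb, chr14:17406828-17406928: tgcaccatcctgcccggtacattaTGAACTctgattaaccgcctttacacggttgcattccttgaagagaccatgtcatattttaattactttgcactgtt
Rarg peak, near the Mfsd5 start, chr15:102110084-102110184: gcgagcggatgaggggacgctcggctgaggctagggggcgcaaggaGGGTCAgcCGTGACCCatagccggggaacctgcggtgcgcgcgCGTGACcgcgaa
Rxrb peak, intergenic, chr17:34238457-34238557: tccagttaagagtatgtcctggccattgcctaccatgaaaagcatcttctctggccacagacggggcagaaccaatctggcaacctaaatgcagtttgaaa
Rxrg peak, intergenic, chr1:169479695-169479795: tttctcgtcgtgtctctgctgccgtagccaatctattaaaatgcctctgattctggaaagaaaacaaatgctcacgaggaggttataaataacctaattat
Cyp26a1 peak, intergenic, chr19:37874796-37874896: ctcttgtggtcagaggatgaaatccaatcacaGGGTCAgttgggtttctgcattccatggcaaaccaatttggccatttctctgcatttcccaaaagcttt
For the Rxra peak, the strongest of all 29, 300 bases around the summit are given.
Rxra peak, intergenic, chr2:27665384-27665683: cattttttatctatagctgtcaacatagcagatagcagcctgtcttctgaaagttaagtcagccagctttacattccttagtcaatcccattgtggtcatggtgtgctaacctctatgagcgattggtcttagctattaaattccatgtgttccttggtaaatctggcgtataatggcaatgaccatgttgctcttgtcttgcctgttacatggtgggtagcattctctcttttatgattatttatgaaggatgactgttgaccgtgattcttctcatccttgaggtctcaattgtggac

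Rara, which encodes the broadly expressed RARα, lies on chromosome 11 from 98789132 to 98836256 on the plus strand and had 5 peaks in its window. None was inside the gene or nearest to its start. The strongest, from 98733456 to 98733839, had 13.98-fold enrichment over the local background with a −log10 q (q being the false discovery rate of the peak caller) of 74.1. It lay 55.5 kb upstream of Rara in an intron of Wipf2. Its fold enrichment exceeded that of 98.4% of all peaks. The other 4 ranged from 3.73-fold to 4.71-fold. A pair of these lay at annotated starts, 1 at Wipf2 and 1 with its summit 34 bp from the start of Cdc6, a replication licensing gene 20.1 kb upstream of Rara. The single downstream peak, 81.1 kb beyond the 3′ end, was intergenic and nearest to Igfbp4, which encodes an IGF-binding protein.

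Rarb, the receptor gene with the longest body of the 9 at 388 kb (chromosome 14, 17263356 to 17651381, minus strand), had 2 peaks, or 3.40 per Mb. That density was below the median of 9.16 per Mb over all coding genes. The peak from 17406762 to 17407035 lay in an intron of Rarb, with 6.17-fold enrichment (−log10 q 18.3). Its summit was 244.5 kb from the annotated 5′ end but only 1108 bp downstream of an internal Rarb start at 17407986, so it was the closest peak to any RAR start. The other peak, with 3.73-fold enrichment, lay 66.6 kb beyond the 3′ end, and its summit was 911 bp from the start of Top2b, which encodes a DNA topoisomerase.

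Rarg, whose product RARγ is prominent in unsegmented mesoderm and skin, lies on chromosome 15 from 102065369 to 102087948 on the minus strand. Its 4 peaks were all upstream, between 22.2 and 93.2 kb from the gene, and each lay within 1 kb of the start of another gene. In order of distance these were Mfsd5 with 4.71-fold enrichment, Espl1, which encodes separase, with 3.02-fold, Pfdn5, a prefoldin subunit gene, with 5.58-fold, and Aaas with 4.19-fold. The Espl1 value was the lowest of the 29 peaks. Summits at Pfdn5 and Aaas were 2 bp and 1 bp from the annotated start.

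The Rxra window held 3 peaks, all downstream and intergenic. Rxra encodes RXRα, the main partner of the RARs in many tissues, and lies on chromosome 2 from 27531960 to 27618477 on the plus strand. The peak from 27665334 to 27665799 reached 27.1-fold enrichment (−log10 q 171), the highest values of the 29. Its fold enrichment ranked 3 and its −log10 q ranked 5 among all peaks, where the maximum fold enrichment was 27.97. It was 47.1 kb beyond the 3′ end of Rxra and 133.6 kb from its 5′ end. Col5a1, a collagen V gene, had the nearest coding start, at 76.4 kb. The nearest start of any annotated transcript was 69.8 kb away and belonged to Rxra. The other Rxra peaks had 3.49-fold and 5.56-fold enrichment and lay 50.5 and 25.3 kb from the Col5a1 start. No other coding gene reached into the Rxra window, whereas the median over all coding genes was 4.

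A peak of at least 10-fold lay in the window of 3 of the 9 genes (Rara, Rxra and Rxrb), compared with 15% of all coding genes. For a peak of at least 20-fold the count was 1 of 9, Rxra, and the share of all coding genes was 0.523%. The 20-fold threshold was chosen after the Rxra value was known and supports nothing by itself.

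Rxrb had the most peaks, 7 in its window, equal to 33.9 per Mb and a higher density than 97.1% of coding genes. It encodes RXRβ and lies in the major histocompatibility region of chromosome 17 (34168757 to 34175338, plus strand), where 14 other coding genes reached into its window. None of the 7 peaks was nearest to Rxrb. The strongest, from 34077127 to 34077394, reached 11.5-fold (−log10 q 43.7), and its summit was 5 bp from a start of H2-Ke2, 91.5 kb upstream of Rxrb. Further peaks at starts were found at B3galt4 and at H2-Ke6, both with 3.84-fold, and at Brd2, a bromodomain gene, with 6.99-fold and 4.82-fold enrichment. The H2-Ke6 peak was the closest to Rxrb, 3.60 kb upstream. The remaining pair, 5.41-fold and 7.13-fold, was intergenic and nearest to H2-Oa.

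All 5 peaks in the Rxrg window had Rxrg itself as nearest coding gene. It encodes RXRγ, the RXR with the most restricted expression, which includes skeletal muscle. The gene lies on chromosome 1 from 169528515 to 169569754 on the plus strand, and its 5 summits spanned 95.5 kb around it. Upstream, 3 intergenic peaks lay 48.8, 46.4 and 22.5 kb from the 5′ end with 6.96-fold, 5.95-fold and 4.69-fold enrichment. The first pair was 2391 bp apart. Inside the gene, the peak from 169548317 to 169548628 reached 5.66-fold (−log10 q 21.6). Its summit was 3 bp from an internal Rxrg start, 19.9 kb from the 5′ end. Of the 29 peaks it was the only one within 1 kb of a start of its own gene. The fifth peak lay 5.49 kb beyond the 3′ end with 5.93-fold enrichment. All 5 values fell between 4.69 and 6.96, where all peaks had a median of 5.22 and an upper quartile of 6.74. The highest of the 5 exceeded 77.1% of all peaks. Rxrg thus differed from Rxra in having several moderate peaks around the gene instead of 1 strong peak beyond it. The non-exonic bases just before this internal start are shown because it is the only member start found under a summit.
Rxrg internal start, chr1:169548393-169548439: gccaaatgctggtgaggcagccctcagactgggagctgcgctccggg

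No peak was listed in the window of Aldh1a2, which spans 280 kb on chromosome 9 around the gene at 71063596 to 71144050. The next peak, with 3.76-fold enrichment, was 283 kb away and nearest to Gcom1. Cyp26b1, on chromosome 6 from 84521938 to 84543740, also had none, and the next peak, at 3.52-fold, was 164 kb away. A count of 0 allows up to 3.69 peaks by the exact Poisson interval. Of all coding genes 24.8% had no peak.

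Cyp26a1, a cytochrome P450 gene that inactivates retinoic acid (chromosome 19, 37772298 to 37776018, plus strand), had 3 peaks. All lay downstream in intergenic sequence and had Cyp26a1 as nearest coding gene. At 41.0, 92.5 and 102.5 kb from the 5′ end they had 5.12-fold, 3.40-fold and 7.50-fold enrichment. The last, from 37874690 to 37874962, was the strongest of the 9 peaks that were nearest to a member gene and exceeded 81.3% of all peaks. It was also the farthest inside any window, 98.8 kb from the gene edge. The nearest peak outside the windows was 110.9 kb from Rxrb, with 7.81-fold enrichment. Both of the first 2 Cyp26a1 peaks also fell in the window of the neighbouring paralog Cyp26c1.

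By density the genes ranked from Rxrb with 33.9 peaks per Mb through Rxrg with 20.7, Rara with 20.2, Rarg with 18.0, Cyp26a1 with 14.7, Rxra with 10.5 and Rarb with 3.40 to Aldh1a2 and Cyp26b1 with 0. The 95% Poisson intervals of neighbours in this order overlapped throughout. The interval of Rxrb, 13.6 to 69.8 per Mb, lay above those of Rarb, 0.412 to 12.3, and Aldh1a2, 0 to 13.2. It overlapped that of Cyp26b1, 0 to 16.6, which also had 0 peaks but in a shorter window than Aldh1a2. These intervals treat peaks as independent, and none of the Rxrb peaks was nearest to Rxrb. Over the 9 genes the median was 14.7 per Mb, against 9.16 over all coding genes with quartiles of 2.04 and 16.4, and 6 of 9 genes were above that median. At least 5 peaks were found at 3 of 9 genes (Rara, Rxrb and Rxrg) and at 19.4% of coding genes.

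**Figure D2:**
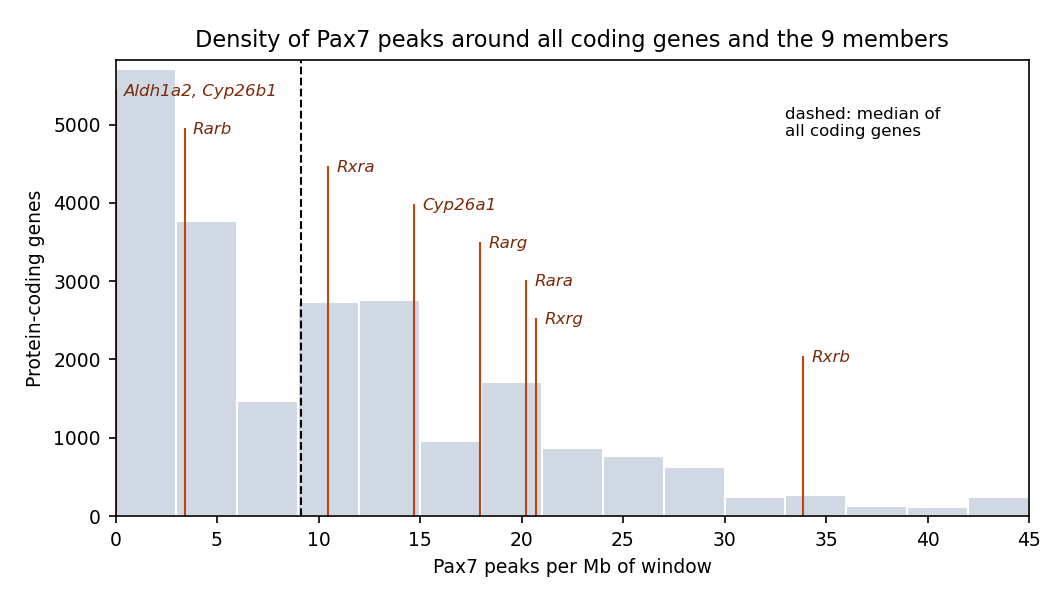
Number of coding genes (vertical axis) by Pax7 peaks per Mb of window (horizontal axis, bins of 3), with each member gene as a red line whose height has no meaning and the median of all coding genes as a dashed line. The 155 coding genes with 45 or more peaks per Mb are not drawn. Rxrb, at 33.9 per Mb, stands in the upper tail and 6 of the 9 genes lie to the right of the dashed line.

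In strength the peaks near these genes had a median close to that of the whole list. The lowest of the 29 was 3.02-fold, the median 5.12-fold (quartiles 3.98 and 6.17) and the highest 27.1-fold, whereas the median of all peaks was 5.22-fold (quartiles 4.32 and 6.74). At least 5-fold enrichment was reached by 15 of 29 peaks, or 51.7% (95% Wilson interval 34.4% to 68.6%), and by 54.9% of all peaks. The RXR genes held 10 of these 15, the RAR genes 3 and Cyp26a1 2. Median fold enrichment was 5.66 in the RXR windows and 4.19 in the RAR windows. Over the 9 peaks nearest to a member gene, of which 5 were at Rxrg, it was 5.93, and over the other 20 it was 4.71. Peaks within 1 kb of an annotated start had a median of 4.71 among the 29, and the rest 5.74. In the whole list these medians were 4.96 and 5.23. The part of peak position in the difference was not tested. The values take discrete steps, and 27 of the 29 peaks shared both fold enrichment and −log10 q with another peak, as did 93.6% of the list.

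**Figure D3:**
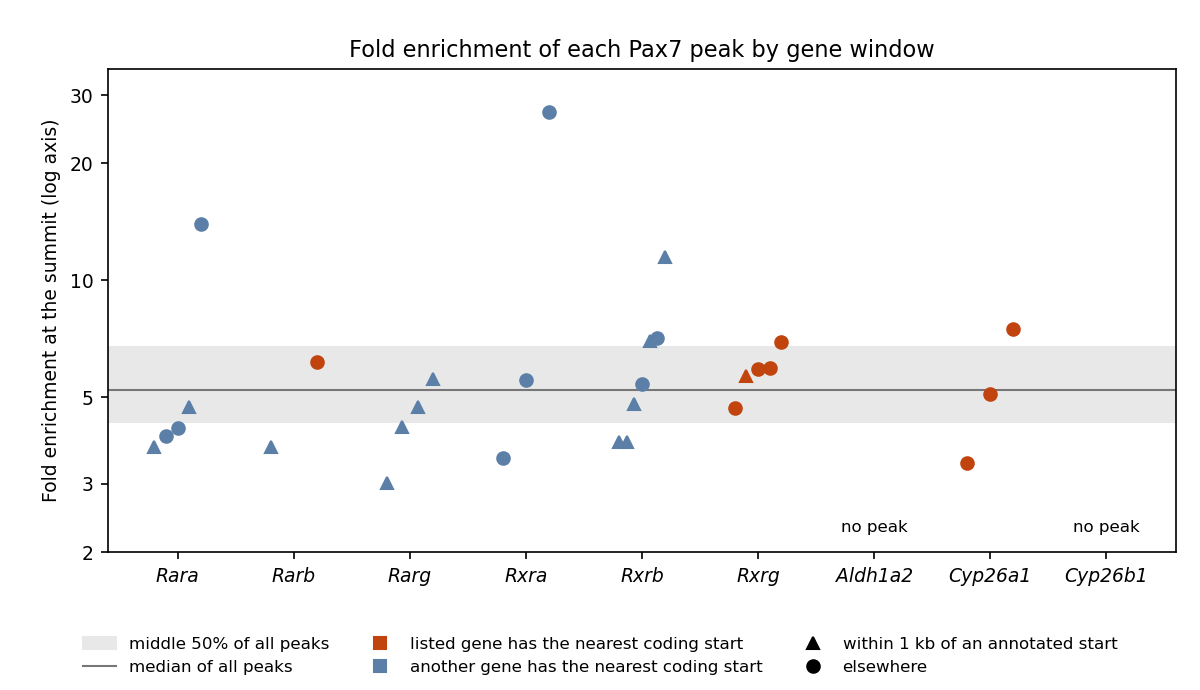
Fold enrichment of each peak on a log axis by gene window, with triangles for summits within 1 kb of an annotated start, colour for the nearest coding gene, and the median and middle 50% of all peaks in grey. Single peaks of 27.1-fold at Rxra, 13.98-fold at Rara and 11.5-fold at Rxrb stand above the grey band, and the 5 Rxrg values lie between 4.69 and 6.96.

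Most of the peaks at starts belonged to other genes. Of the 29 summits 13 lay within 1 kb of an annotated start, or 44.8% (Wilson interval 28.4% to 62.5%), of which 12 were at the start of another gene and 1 at Rxrg. Over all peaks the share was 16.3%. Since windows centred on genes catch more starts than the genome at large, the same share was taken over the windows of all coding genes, where it was 32.0% of 58288 peaks, each counted once per window. A further 14 of the 29 summits were intergenic, 2 were in introns and none was in an exon away from a start. Introns held 6.90% of these summits (Wilson interval 1.91% to 21.96%) and 42.1% of all summits. The intron share over the windows of all coding genes was not taken, so these 2 shares are not on like terms.

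Gene density moved with this share. The windows of Rara, Rarg and Rxrb, with 8 to 14 other coding genes each, held 16 peaks, of which 11 were at starts and 0 were nearest to the member. The windows of the other 6 genes, with 0 to 2 other coding genes each, held 13 peaks, of which 2 were at starts and 9 were nearest to the member. This split was made after the values were seen. GC content moved in the same direction, with a median of 58.4% within 50 bp of the 13 summits near starts and 45.05% at the other 16. The whole list had a like difference, with medians of 55.4% near starts and 44.6% elsewhere. The part of GC content in these peaks was not tested. A member gene was the nearest coding gene for 31.0% of the 29 peaks, compared with 29.8% over the windows of all coding genes. Counted by gene, 3 of 9 were nearest to at least 1 peak, and 36.3% of all coding genes were.

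The share of these peaks with a Pax motif depended on the distance searched. Within 50 bp of the summit 2 of 29 peaks, or 6.90% (Wilson interval 1.91% to 21.96%), had a Pax motif, and 14.6% of all peaks did. In windows of the same width 500 bp to the left and right of all summits the shares were 1.92% and 2.06%. For the 29 peaks themselves, 2 left flanks, or 6.90%, and 0 right flanks had a Pax motif. The left flank thus equalled the summit share in these peaks. Within 100 bp of the summit 5 of 29 peaks, or 17.2% (Wilson interval 7.60% to 34.5%), had a Pax motif, close to the 18.8% of all peaks. Both matches within 50 bp were the paired-box core GTCACG. One was in the Mfsd5 peak of the Rarg window, whose sequence above holds 2 cores on the minus strand, read there as CGTGAC. The other was in the H2-Ke6 peak of the Rxrb window, 17.5 bp from the summit. Neither peak reached 5-fold enrichment. The 300 bases printed for the 27.1-fold Rxra peak held no match to any motif searched, and the stretch printed for the 13.98-fold Rara peak held no Pax motif either.

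Half-sites of the kind that RAR and RXR bind were searched in the same way. They occurred within 50 bp of the summit in 3 of 29 peaks, or 10.3% (Wilson interval 3.58% to 26.4%), and in 18.5% of all peaks. In the flanks 500 bp away the shares were 17.2% on either side for the 29 peaks. For all peaks they were 19.4% and 19.5%. Summits therefore held half-sites no more often than their flanks, in the 29 peaks and in the whole list. Within 100 bp the shares were 20.7% and 33.5%. The 3 peaks within 50 bp were the intronic Rarb peak with AGTTCA on the minus strand, the Mfsd5 peak with GGGTCA on both strands, and the strongest Cyp26a1 peak with GGGTCA on the plus strand. In the Mfsd5 peak the minus-strand half-site overlapped a paired-box core. The myogenic E-box CAGCTG was found within 50 bp of 0 of 29 summits, with a Wilson upper limit of 11.7%, and of 15.7% of all summits. Within 100 bp it was found at 5 of 29, or 17.2% (Wilson interval 7.60% to 34.5%), compared with 26.2% of all. In the flanks 500 bp away the E-box was found at 3 left flanks, or 10.3%, and 0 right flanks of the 29 peaks. For all peaks these flank shares were 4.53% and 4.59%. The control hexamer GCACTG was found within 50 bp of 2 of 29 summits, compared with 6.86% of all summits.

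**Figure D4:**
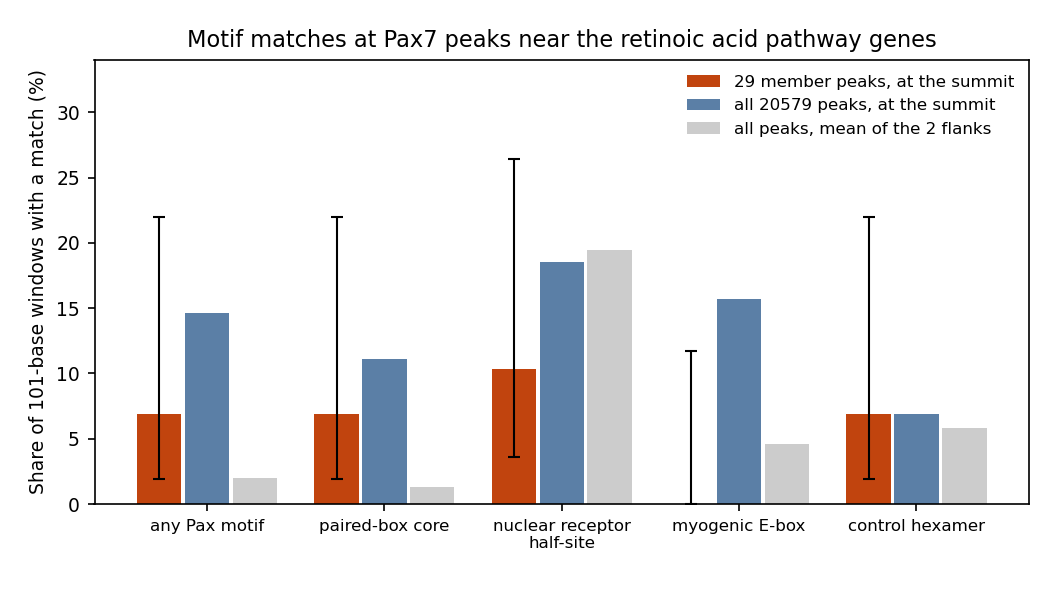
Share of windows reaching 50 bp to either side that held a motif match, in percent, at the 29 peaks (red, with 95% Wilson intervals), at all 20579 peaks (blue) and in the flanks 500 bp away (grey, mean of both sides). The share with any Pax motif is 6.90% at the 29 peaks and 14.6% at all peaks, and the wide red intervals include the blue bars for every motif except the E-box. Within 100 bp, which is not drawn, the E-box interval of 7.60% to 34.5% includes the 26.2% of all peaks.

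The DR5 of the receptors' own targets was looked for in the promoters of the 9 genes, from 250 bases before to 50 bases after each annotated coding start, a search added after the peak values had been seen. It was found at a start of Rarb and at the start of Cyp26a1, and at no other member. Among 45993 coding starts 33, or 0.0718%, had one. These promoters are shown, 5′ to 3′ in the direction of the gene and ending just before the start, with the repeat in capitals.
Rarb internal promoter, minus strand, chr14:17407987-17408086: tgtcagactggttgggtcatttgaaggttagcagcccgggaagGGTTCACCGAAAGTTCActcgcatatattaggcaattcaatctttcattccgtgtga
Cyp26a1 promoter, plus strand, chr19:37772198-37772297: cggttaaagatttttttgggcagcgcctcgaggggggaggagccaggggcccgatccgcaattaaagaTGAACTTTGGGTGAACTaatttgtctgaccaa
In Rarb the repeat lay 41 to 57 bases upstream of the internal start and 1157 bp from the Pax7 summit, outside the peak. In Cyp26a1 it lay 16 to 32 bases upstream of the start and 41.0 kb from the nearest Pax7 summit. No DR1, DR2 or DR5 was found within 100 bp of any of the 29 summits. A Pax7 peak thus lay near the DR5 promoter of Rarb but not at that of Cyp26a1, and neither repeat was under a summit.

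Other genes of retinoid metabolism and signalling were examined by the same rule. Of 23 such genes 21 had at least 1 peak, compared with 75.2% of all coding genes. The exceptions were Lrat, which stores retinol as esters, and the dehydrogenase gene Aldh1a1. Their median was 4 peaks and 13.7 per Mb, and 14 of them were nearest to at least 1 peak, compared with 36.3% of all coding genes. The 5 co-regulator genes examined, Ncor1, Ncoa1, Ncoa2, Ncoa3 and Nrip1, had 5 to 7 peaks each. At least 5 peaks were found at 9 of the 23 genes and at 19.4% of all coding genes. The densities of the 5 co-regulator genes were 13.7 to 24.4 per Mb, where all coding genes had an upper quartile of 16.4. None of these 5 genes had a peak of at least 10-fold. All 7 peaks in the Ncoa2 window and 6 of 7 in the Nrip1 window were nearest to those genes. For Ncor1 the count was 0 of 5, for Ncoa1 1 of 6 and for Ncoa3 3 of 6. The 5 binding and uptake genes had 1 to 9 peaks, the 7 storage and synthesis genes 0 to 4, and the 5 target genes 1 to 9.

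Stra6, the cell-surface receptor for retinol-binding protein, and Meis1, a homeobox gene that responds to retinoic acid, had the most peaks of these, 9 each. Each of the 2 was the nearest coding gene for 3 of its 9 peaks. The strongest Stra6 peak, at 15.6-fold with a −log10 q of 88.6, was in an intron shared with Ccdc33, 43.9 kb from the Stra6 5′ end. The strongest Meis1 peak had 7.15-fold enrichment and lay 1583 bp upstream of the gene. Nrip1, which encodes a co-repressor of nuclear receptors, had 7 peaks, the strongest at 8.48-fold inside the gene and 18.3 kb from its 5′ end. Rbp4 and Ncoa2 also had 7 peaks each, and Rbp4 was nearest to 0 of its 7. The strongest peak of Stra6 thus stood inside that gene, although Ccdc33 had the nearest coding start, at 5412 bp. Another peak of the Stra6 window, at 11.8-fold, was intergenic, outside the gene and nearest to Islr. The 3 peaks of at least 10-fold near the 9 member genes were all outside the member gene.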

How the data were processed

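Pax7 ChIP-seq and input libraries (2 each) came from Dox-treated iPax7 cells. According to the methods, reads were mapped to mm9 by the authors with bowtie2. Only unique alignments without PCR duplicates (Picard) were retained, and MACS2 was run on the merged libraries with q-values below 0.01 accepted. The deposited list gives for each peak the fold enrichment, a ratio of ChIP over local background at the summit, the p-value and the q-value as −log10, a score derived from −log10 q, and the summit position. Only fold enrichment, −log10 q and positions were used.

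Summits were placed on the NCBIM37 genome and its GENCODE annotation (vM1), with 1-based coordinates, and 0 peaks ran past a chromosome end. The window was 100 kb beyond each gene end. The nearest gene was that with the nearest protein-coding start. Summits were classed as within 1 kb of any annotated start, then exon, intron or intergenic. Both strands were searched for motifs up to 50 bp from the summit and in flanks 500 bp away. Intervals are Wilson for shares and exact Poisson for counts, at 95%, and cover counting error only. The counting and search steps were tested on simulated data. Without replicate values no test was run.

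The members and lists were chosen with earlier results of these data known. All 9 members and all their peaks are named. Of the other retinoid genes the 3 with the most peaks were to be described, and genes tied with the last of them are named. An item of that list is not reported here. Windows of 25, 50 and 200 kb, thresholds on −log10 q or fold enrichment, overlap, merging, and other motif and start distances were tried as alternatives. Columns of values from an unmapped sample numbered 0. Computations were run in Python 3.11.15 with scipy 1.17.1, pandas 2.3.3, numpy 2.4.6 and matplotlib 3.10.9.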

Additional observations from a re-analysis of the deposited data

How the results depend on the processing

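The count of 29 peaks depended on the window and on the assignment. It was 7 with 25 kb and 13 with 50 kb beyond the gene, 15 with a fold enrichment of at least 5, and 9 when only peaks nearest to the member gene were kept. The same nearest-gene rule left 3 genes with a peak instead of 7, Rarb, Rxrg and Cyp26a1. The share of peaks with a Pax motif fell from 6.90% to 0% among peaks of at least 5-fold enrichment and rose to 17.2% within 100 bp of the summit, and the half-site share went from 10.3% to 20.7% within 100 bp. The count stayed within 1.5 times of 29 under the other alternatives, at 42 with 200 kb, 27 with a −log10 q of at least 5, 22 within 100 kb of the 5′ end, and 29 with merging or with any overlap. Of 111 combinations of result and alternative 33 were labelled as moved, and 27 of these were counts for single genes. The rises of the Pax motif share to 17.2% and of the half-site share to 20.7% were not among the 33. The 5 peaks of Rxrg became 3 with 25 kb and stayed at 4 or 5 otherwise. Aldh1a2 had 0 peaks in every setting.

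No paired analysis was possible because the peaks were called on merged libraries, and leaving out each replicate was not run for the same reason. The list gives no depth, so no detection limit is given for genes without a peak.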

Other observations

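Beyond 100 kb, the next summit was 131 kb from Rara, 133 kb from Rarg, 150 kb from Cyp26a1, 170 kb from Rarb, 204 kb from Rxrg and 209 kb from Rxra. The one near Rxrg had 11.4-fold enrichment and was nearest to Mgst3, and the one near Cyp26a1 had 5.93-fold enrichment and Cyp26a1 as nearest coding gene. Among the target genes of retinoic acid outside the 9 members, Nr2f1 had 1 peak of 10.95-fold and Meis2 had 4 peaks with a maximum of 12.7-fold, all nearest to those genes. Both encode transcription factors. The strongest peaks of the other targets, Nr2f2, Meis1 and Tgm2, had 8.11-fold, 7.15-fold and 7.54-fold enrichment. A peak of at least 10-fold lay in the window of 3 of the 23 other retinoid genes, compared with 15% of all coding genes.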
